A study of Mus musculus with 10 samples.

Results

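Radial glia marker and effector genes were taken as 37 genes named for this cell type, found by their symbols in the count table. All 37 were found among the 14300 genes of the table. They were compared between the TdTomato+ and the TdTomato- cells of *Grem1creERT; Rosa26LSLTdtomato* embryos on the C57BL/6J strain, in which a transgene with *Grem1* regulatory sequence drives a tamoxifen-inducible Cre that switches on a red reporter permanently. Cells red after tamoxifen are therefore *Grem1*-expressing cells and their progeny, and the TdTomato- population holds every other viable cell of the same tissue, unrecombined *Grem1*-expressing cells included. Both populations carried both alleles and the same tamoxifen, given to the dam at E13.5 and followed by collection at E14.5 after 24 h. There were 5 libraries of each population, a pair for each of the mice numbered 2 to 6, from dorsal telencephalon with the meninges taken off according to the methods of the study, and from brain according to the sample labels. Cre-negative littermates set the fluorescence gate and are not among these libraries.

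Radial glia are the neural stem cells of the embryonic cortex. Their cell bodies lie by the ventricle, a long fibre reaches the outer surface, and they divide to give neurons directly or through intermediate progenitors, before many of them turn to making astrocytes. Their known products include the intermediate filaments of the fibre, fatty acid carriers, extracellular matrix proteins, serine-making enzymes, RNA-binding proteins that hold back differentiation, and the co-activators YAP and TAZ with their TEAD partners. Several of these genes are used by astrocytes and by other dividing progenitors as well, so none of them stands for a single cell type.

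The libraries held 23429034 to 27286180 counts. Levels are given as CPM, the count of a gene relative to the library total scaled by TMM, and 3 counts, the floor used here, correspond to 0.104 to 0.136 CPM. Projection neuron genes were higher in TdTomato+ cells, 10 of 10 by adjusted p with a median log2 difference of 1.47, and 3 past a log2 fold change of 2. Among them, *Sox5* and *Fezf2*, regulators of deep-layer neurons, had log2 fold changes of 2.47 and 2.33. Genes of intermediate progenitors (7 of 7), interneurons (10 of 10) and dividing cells (15 of 15) were lower past both thresholds, with *Eomes* at -5.07, *Dlx2* at -5.71 and *Mki67* at -5.26. Of the endothelial genes, *Cldn5*, *Cdh5*, *Flt1* and *Tek* were not in the count table. The sum over the 4 that it held was low, 3.25 to 5.85 CPM in TdTomato- libraries and 2.76 to 4.31 CPM in TdTomato+ libraries. *Kdr*, a VEGF receptor, was the 1 of these 4 that differed by adjusted p (0.00528), at a mean of 2.11 CPM in TdTomato- and 0.894 CPM in TdTomato+ libraries. In sorted bulk RNA, fewer cells of a type and less RNA per cell cannot be told apart, so each difference below is one between populations.

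Of the 37 genes, 31 fell and 0 rose in TdTomato+ cells at an adjusted p of 0.05 or less and a log2 fold change of at least 2 in size (edgeR's quasi-likelihood test with the mouse as a block). Among all genes tested, 9.74% fell and 3.2% rose past the same thresholds. By adjusted p alone 34 of the 37 fell, against 39.4% of all genes, and 3 rose, against 37.9% (2 rose when libraries were scaled by total counts only). Every TdTomato+ library was under every TdTomato- library for 34 members (32.4% of all genes) and over them for 2 (29.1%). The median log2 fold change of the members was -4.01, that of all genes was -0.01, and that of the 1393 genes that fell past both thresholds was -3.46. All 37 members went the same way in all 5 mice, and the share of all genes that did so was not counted. The members thus lay mostly among the strongly reduced genes, but from a 51.6-fold decrease in *Pdpn* to a small increase in *Ptprz1*, *Ncan* and *Lix1*.

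**Figure D1:**
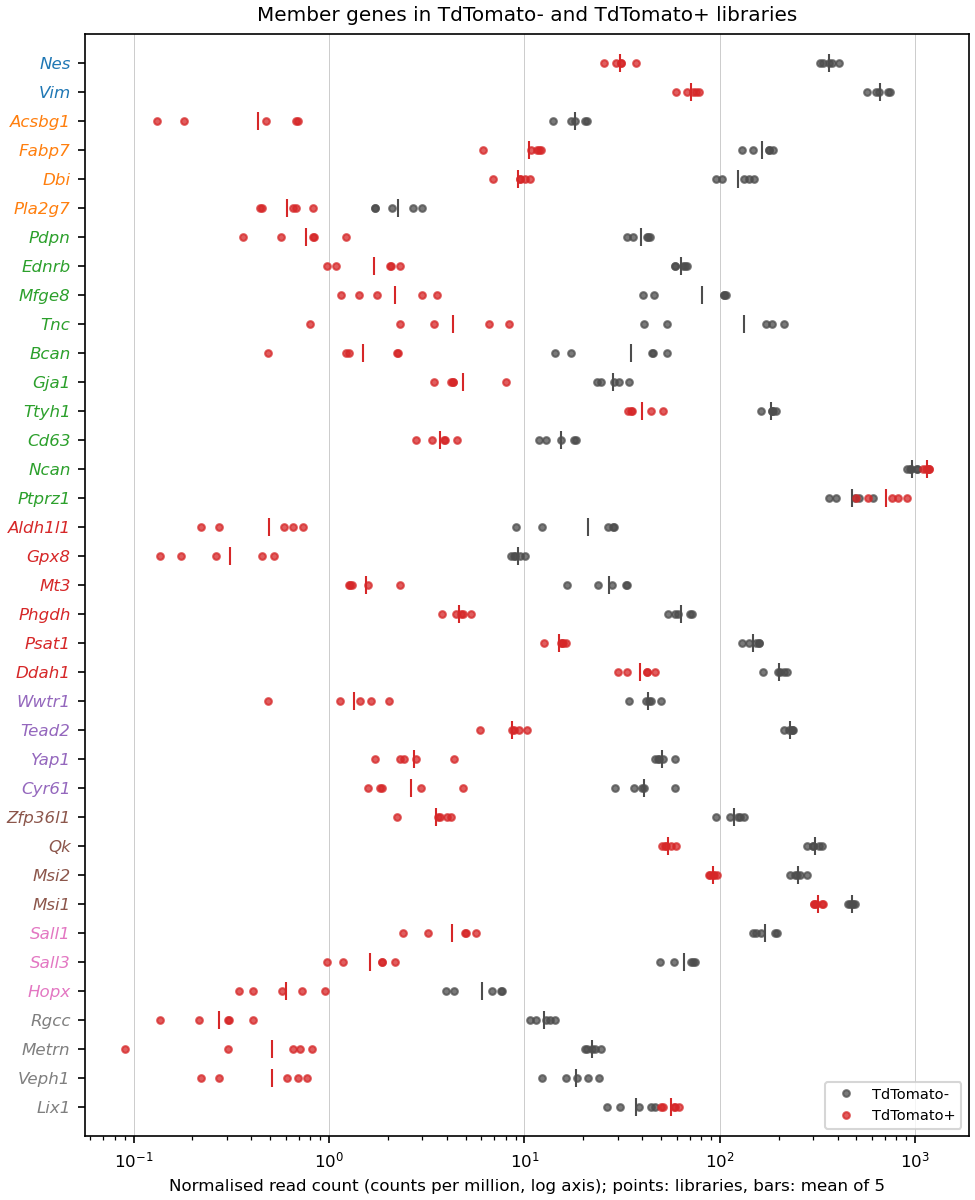
Normalised read count of each member gene in every library, in CPM on a log axis, with grey points for TdTomato- and red points for TdTomato+ libraries and bars at the mean of 5. The red and grey points overlap for Ptprz1 only, and for Ncan and Lix1 the red points lie to the right.

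**Figure D2:**
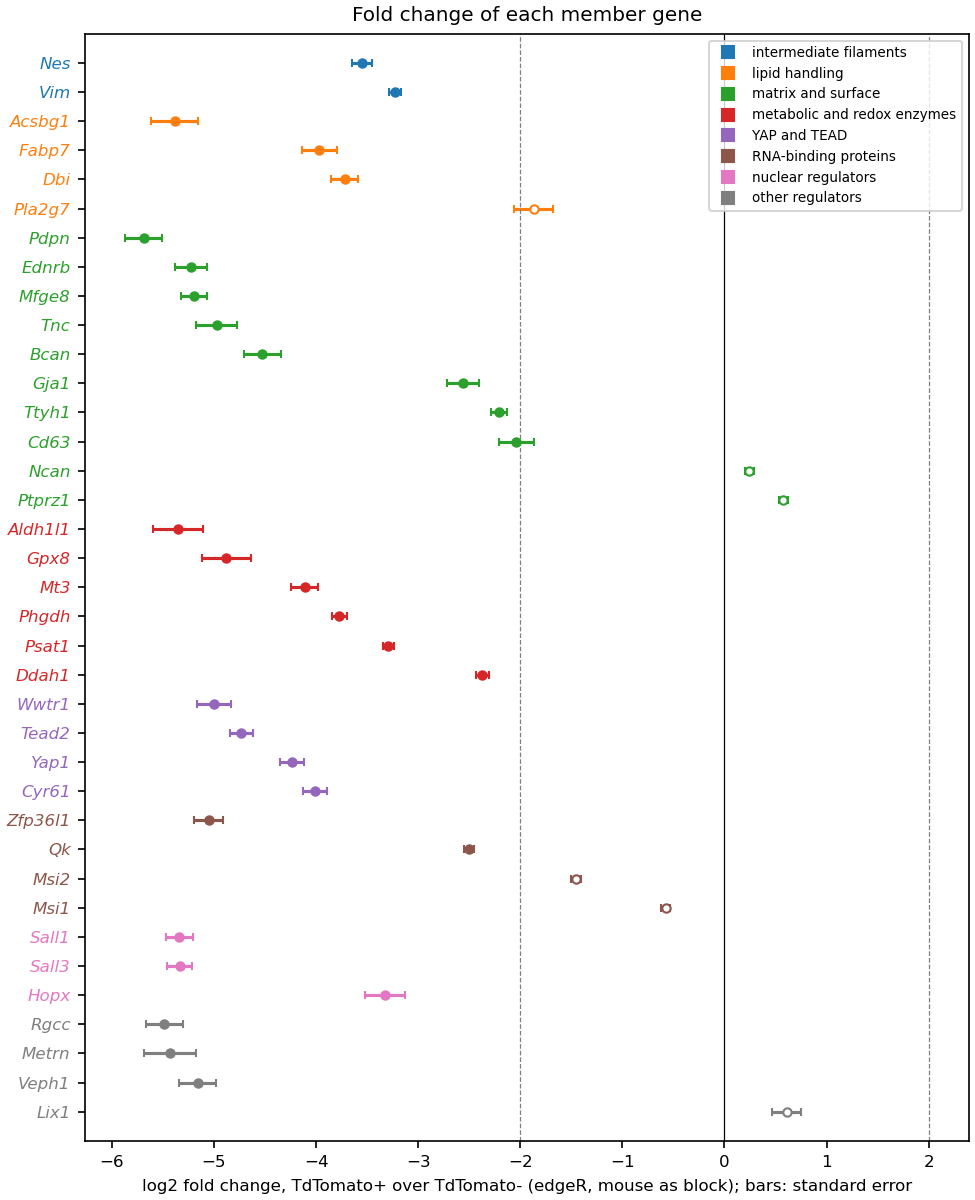
Log2 fold change of each member, TdTomato+ over TdTomato-, with its standard error, colored by role. Dashed lines mark a log2 fold change of 2 in either direction, and open points are the 6 members that did not pass both thresholds.

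The intermediate filament genes *Vim* and *Nes*, which encode the vimentin and nestin of the radial fibre, both fell past the thresholds. *Vim* (chr2:13573927-13582826 of GRCm38, plus strand) stood at 633, 652, 565, 743 and 724 CPM in the TdTomato- libraries of mice 2 to 6, and at 59.6, 75.9, 67.8, 73.0 and 78.1 CPM in the TdTomato+ libraries of the same mice. It was 9.35-fold lower in TdTomato+ cells (log2 fold change -3.23, SE 0.06, adjusted p = 1.46e-09). *Nes* (chr3:87971078-87980451, plus strand) stood at 361 ± 32.6 CPM in TdTomato- and at 30.9 ± 4.34 CPM in TdTomato+ libraries (SD, n = 5), with a log2 fold change of -3.55. The populations did not overlap for either gene. Per kb of exonic sequence, *Vim* had the highest level of all members in TdTomato- cells, 140 CPM per kb, and came to 14.9 CPM per kb in TdTomato+ cells.

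The lipid-handling genes fell to different degrees. *Fabp7*, which encodes the brain fatty acid binding protein, was at 178, 148, 129, 178 and 187 CPM in TdTomato- and at 6.17, 12.1, 11.8, 10.7 and 11.7 CPM in TdTomato+ libraries of mice 2 to 6. The populations were far apart, 15.7-fold, and mouse 2 had the lowest TdTomato+ level. *Dbi*, the acyl-CoA binding protein, was 13.2-fold lower, at 124 ± 24.0 CPM in TdTomato- and at 9.32 ± 1.43 CPM in TdTomato+ libraries (SD, n = 5). *Acsbg1*, an acyl-CoA synthetase for very long chains, was 41.8-fold lower, with TdTomato+ levels of 0.132 to 0.696 CPM, 1 library of them at the floor. *Pla2g7*, a secreted phospholipase that cleaves platelet-activating factor, had the lowest level per kb of the members in TdTomato- cells, and was at 1.72 to 3.00 CPM in TdTomato- and at 0.442 to 0.826 CPM in TdTomato+ libraries. Its log2 fold change of -1.87 passed the adjusted p (1.97e-05) and not the fold threshold, which it passed (-2.04) when libraries were scaled by their total counts only.

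The genes for matrix and surface proteins held the strongest decrease and also increases. *Pdpn*, the membrane glycoprotein podoplanin, was at 42.7, 36.0, 33.3, 44.1 and 42.1 CPM in the TdTomato- libraries of mice 2 to 6 and at 0.363, 0.824, 0.839, 0.565 and 1.22 CPM in TdTomato+ libraries. Its log2 fold change was -5.69 (SE 0.18, adjusted p = 8.85e-09), and no TdTomato+ library came near a TdTomato- library. *Ednrb*, the endothelin receptor type B, was 37.4-fold lower, from 63.4 ± 4.39 to 1.70 ± 0.620 CPM (SD, n = 5). *Mfge8*, a secreted milk fat globule protein that bridges cells to dying neighbours, was 36.7-fold lower, and *Tnc*, the matrix glycoprotein tenascin C, 31.4-fold lower. *Gja1*, the gap junction protein connexin 43, was 5.91-fold lower, at 23.4 to 34.2 CPM in TdTomato- and at 3.43 to 8.09 CPM in TdTomato+ libraries. *Ttyh1*, a tweety family membrane protein, fell from 183 ± 12.02 to 39.99 ± 7.65 CPM, 4.62-fold. *Cd63*, a tetraspanin of late endosomes found in many cell types, lay just past the fold threshold at -2.04, and under it without mouse 5 (-1.94) or without mouse 6 (-1.88).

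Within this group, related genes went different ways. *Bcan* and *Ncan* encode brevican and neurocan, lecticans of the neural matrix. *Bcan* was at 53.9, 17.2, 14.4, 44.9 and 45.2 CPM in TdTomato- and at 1.22, 1.26, 0.486, 2.22 and 2.26 CPM in TdTomato+ libraries of mice 2 to 6, a 23.03-fold decrease. *Ncan* was at 955, 908, 938, 1017 and 1015 CPM in TdTomato- and at 1169, 1156, 1170, 1090 and 1134 CPM in TdTomato+ libraries. All TdTomato+ values of *Ncan* were over all TdTomato- values, by a log2 fold change of 0.24 (SE 0.05, adjusted p = 0.00106). That increase was not called when libraries were scaled by total counts only (log2 fold change 0.07, adjusted p = 0.202), a scaling that moved the median of all genes from -0.01 to -0.18. *Ptprz1* encodes a receptor tyrosine phosphatase that binds tenascins, among them the product of *Tnc*. *Ptprz1* was at 611, 394, 362, 491 and 513 CPM in TdTomato- and at 906, 573, 498, 764 and 820 CPM in TdTomato+ libraries. Its populations overlapped, because mice 3 and 4 were low in both, yet each mouse was higher in TdTomato+ cells, at 137% to 160% of its TdTomato- level, and the log2 fold change was 0.58 (SE 0.04, adjusted p = 1.68e-06). Per kb of exonic sequence, the highest members in TdTomato+ cells were *Ncan* at 159, *Msi1* at 54.7 and *Ptprz1* at 50.0 CPM per kb.

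All 6 genes of metabolic and redox enzymes fell past both thresholds. *Phgdh* and *Psat1* encode the first enzymes of serine synthesis from a glycolytic intermediate. *Phgdh* (chr3:98313170-98339990, minus strand) stood at 61.4, 59.1, 54.2, 72.4 and 70.2 CPM in TdTomato- and at 3.76, 4.47, 4.72, 4.87 and 5.33 CPM in TdTomato+ libraries of mice 2 to 6, a 13.7-fold decrease. *Psat1* (chr19:15904678-15947337, minus strand) stood at 148 ± 12.3 CPM in TdTomato- and at 15.1 ± 1.49 CPM in TdTomato+ libraries (SD, n = 5), a 9.81-fold decrease. *Psph*, the enzyme of the last step of the same route and no member, had a log2 fold change of -1.05 (adjusted p = 6.32e-06), at a mean of 15.5 CPM in TdTomato- and at 7.42 CPM in TdTomato+ libraries. Of 15 other serine and one-carbon genes, 5 fell and 0 rose past both thresholds, and 12 fell and 2 rose by adjusted p, with a median log2 fold change of -1.12. *Gldc*, which cleaves glycine, fell most (-4.71), followed by *Shmt1* (-3.67), the cytosolic enzyme that turns serine into glycine, while its mitochondrial relative *Shmt2* was at -0.87.

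*Aldh1l1* encodes the cytosolic formyltetrahydrofolate dehydrogenase that is widely used to mark astrocytes. It was at 28.4, 12.2, 9.02, 26.7 and 28.8 CPM in TdTomato- and at 0.272, 0.737, 0.221, 0.652 and 0.588 CPM in TdTomato+ libraries of mice 2 to 6, a 40.8-fold decrease. *Aldh1l2*, the mitochondrial paralogue and no member, had a log2 fold change of 0.53 (adjusted p = 0.000221), in the opposite direction. *Gpx8*, a peroxidase of the endoplasmic reticulum, fell 29.4-fold to 0.136 to 0.520 CPM, and *Mt3*, a brain metallothionein that binds zinc and copper, fell 17.3-fold. *Ddah1*, which breaks down methylated arginines that inhibit nitric oxide synthases, fell least of the group, 5.17-fold, and kept 39.0 ± 6.79 CPM in TdTomato+ libraries (SD, n = 5). On chromosome 3, *Cyr61* and *Ddah1* lie 109 kb apart, and *Nes* and *Bcan* 7.08 kb apart.

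YAP (encoded by *Yap1*) and TAZ (encoded by *Wwtr1*) are transcriptional co-activators that the Hippo kinases keep out of the nucleus, and that act on genes by binding TEAD factors. All 4 members of this group fell past both thresholds. *Yap1* (chr9:7931999-8004596, minus strand) stood at 46.6, 59.1, 48.2, 51.2 and 48.9 CPM in TdTomato- and at 1.72, 4.38, 2.43, 2.78 and 2.31 CPM in TdTomato+ libraries of mice 2 to 6. *Wwtr1* (chr3:57455649-57575910, minus strand) stood at 43.4, 42.0, 34.3, 49.7 and 44.3 CPM in TdTomato- and at 1.13, 1.65, 0.486, 1.43 and 2.03 CPM in TdTomato+ libraries. The decrease was 18.9-fold for *Yap1* and 32.0-fold for *Wwtr1*, with no overlap of the populations. *Tead2*, a TEAD factor of embryonic tissue and per kb the most abundant gene of the group, went from 228 ± 9.20 to 8.62 ± 1.66 CPM (SD, n = 5), 26.6-fold lower. *Cyr61*, also called *Ccn1*, a secreted matrix protein whose gene is a known target of YAP and TEAD, was at 58.8, 39.98, 29.2, 36.2 and 40.8 CPM in TdTomato- and at 4.85, 1.82, 1.59, 1.87 and 2.94 CPM in TdTomato+ libraries. It was 16.1-fold lower, and mouse 2 had its highest level in both populations.

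The promoters of these genes are shown because TEAD factors bind the core GGAATG. Windows of the 250 bases before the start were taken from RefSeq on GRCm38.p6 for 35 of the 37 members, in 44 windows, and searched on both strands. The core occurred in windows of *Yap1*, *Wwtr1*, *Cyr61*, *Gpx8* and *Veph1*, in 6 of the 44 windows (13.6%), and in 12.6% of all 32851 promoter windows of the same length. The share among the members was thus near that of all promoters. Overlapping windows of *Wwtr1* held the same match, which was counted in each of them. The windows are printed 5′ to 3′ on the strand of the gene, with the core in capitals, which reads CATTCC where it lies on the opposite strand.
Yap1 (chr9:8004597-8004846, minus strand): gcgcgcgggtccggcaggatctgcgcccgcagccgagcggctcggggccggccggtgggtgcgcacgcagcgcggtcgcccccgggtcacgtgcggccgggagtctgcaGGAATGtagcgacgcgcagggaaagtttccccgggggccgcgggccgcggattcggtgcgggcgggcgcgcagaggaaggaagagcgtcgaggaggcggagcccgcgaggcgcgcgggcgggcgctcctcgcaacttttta
Wwtr1 (chr3:57575911-57576160, minus strand): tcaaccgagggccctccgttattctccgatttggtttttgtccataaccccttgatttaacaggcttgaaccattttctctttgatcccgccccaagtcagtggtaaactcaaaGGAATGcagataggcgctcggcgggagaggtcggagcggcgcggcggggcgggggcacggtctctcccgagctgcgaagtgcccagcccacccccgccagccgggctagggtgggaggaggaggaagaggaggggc
Cyr61 (chr3:145649986-145650235, minus strand): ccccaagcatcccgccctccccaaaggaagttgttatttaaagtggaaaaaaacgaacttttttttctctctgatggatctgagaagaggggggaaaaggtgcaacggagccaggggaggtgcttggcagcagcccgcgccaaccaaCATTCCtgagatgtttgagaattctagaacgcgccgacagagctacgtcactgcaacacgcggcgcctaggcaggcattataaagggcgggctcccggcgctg
The core began 141 bases before the start in *Yap1*, 136 in *Wwtr1* and 103 in *Cyr61*. Other motifs were searched in the same way. The RBPJ core GTGGGAA was in 3 windows of members (6.82%, against 5.42% of all), of *Mfge8*, *Ncan* and *Tnc*, the SOX core ACAAAG in 4 (9.09%, against 16.5%), and the POU octamer ATGCAAAT in 3 (6.82%, against 1.60%), of *Acsbg1* and *Tnc*. These matches describe letters in a window and were not tested as sites. The POU match in *Tnc* lay in overlapping windows and was counted in each of them.

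The other genes of the Hippo pathway had a smaller median change than the 4 members, although single genes moved as far. Of 20 listed, 19 were in the table, and past both thresholds 4 fell and 1 rose, while by adjusted p 15 fell and 2 rose. Their median log2 fold change was -0.62, against -4.49 for the 4 members. *Ajuba*, a LIM protein that restrains the Hippo kinases, fell to -4.55 on the log2 scale and *Fat1*, a giant protocadherin, to -4.02. *Ctgf*, another known YAP and TEAD target, had a log2 fold change of -3.50, at a mean of 2.29 CPM in TdTomato- and at 0.193 CPM, close to the floor, in TdTomato+ libraries. Of the TEAD paralogues, *Tead1* was at -1.40 and *Tead3* at -2.55. The kinase genes had small differences, with *Lats1* at -0.16, *Lats2* at -0.69, *Stk3* at -0.62 and *Stk4* at -0.16. *Fat4*, a protocadherin that signals with *Dchs1*, rose by 2.13 on the log2 scale, from 332 to 1458 CPM, whereas *Dchs1* was at -0.05 (adjusted p = 0.257).

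**Figure D3:**
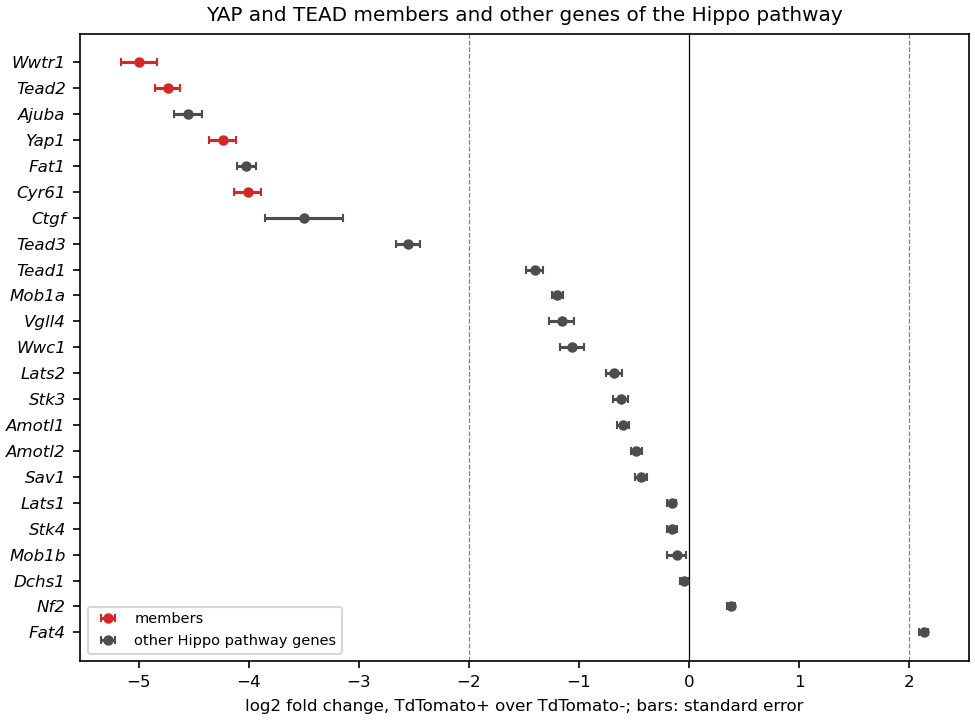
Log2 fold change, TdTomato+ over TdTomato-, with its standard error, of the 4 YAP and TEAD members in red and the 19 other Hippo pathway genes of the table in grey. The members lie between -5.00 and -4.01 and most of the other genes near 0, with Fat4 to the right at 2.13.

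The RNA-binding proteins ranged widely. *Zfp36l1*, which binds AU-rich elements and speeds decay of messages, was at 134, 126, 96.0, 123 and 113 CPM in TdTomato- and at 2.22, 3.69, 3.62, 4.00 and 4.20 CPM in TdTomato+ libraries of mice 2 to 6, a 33.2-fold decrease. *Qk*, the quaking splicing and stability factor, fell 5.65-fold, from 307 ± 21.6 to 54.3 ± 3.59 CPM (SD, n = 5). *Msi1* and *Msi2* encode the musashi translational regulators of neural stem cells. *Msi2* was at 280, 258, 250, 244 and 228 CPM in TdTomato- and at 88.2, 96.4, 93.4, 92.5 and 88.8 CPM in TdTomato+ libraries, and *Msi1* at 465, 494, 454, 478 and 474 CPM and at 332, 303, 311, 302 and 338 CPM. Both were lower in every mouse with no overlap, by log2 fold changes of -1.45 (adjusted p = 1.71e-08) and -0.58 (adjusted p = 2.63e-06), which did not reach the fold threshold. *Msi1* stayed at 67.2% ± 4.58 of its TdTomato- level and *Msi2* at 36.7% ± 2.94 (SD, n = 5). These genes had some of the smallest spreads of all members in TdTomato+ cells, with an SD on the log2 scale of 0.07 for *Msi1*, 0.05 for *Msi2* and 0.09 for *Qk*.

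The nuclear regulators *Sall1* and *Sall3*, zinc finger transcription factors, fell alike, 40.5-fold and 40.4-fold. *Sall1* was at 154, 196, 147, 191 and 163 CPM in TdTomato- and at 2.403, 4.99, 3.22, 5.00 and 5.65 CPM in TdTomato+ libraries of mice 2 to 6. *Sall3* was at 65.2 ± 10.9 CPM in TdTomato- and at 1.61 ± 0.510 CPM in TdTomato+ libraries (SD, n = 5). *Hopx*, a homeodomain protein that does not bind DNA and is used to mark outer radial glia, was at 3.97 to 7.65 CPM in TdTomato- and at 0.347 to 0.957 CPM in TdTomato+ libraries, 10.04-fold lower. Of its exonic sequence, 27.2% overlaps a gene on the opposite strand, and its values may hold reads of that gene, since the strand setting of the counts is not given.

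Of the remaining regulators, *Rgcc*, a cell cycle regulator, fell 44.9-fold to 0.136 to 0.407 CPM, and *Veph1*, a membrane protein with a pleckstrin homology domain, fell 35.8-fold. *Metrn*, the secreted glial factor meteorin, was at 20.8, 24.6, 22.3, 22.98 and 20.3 CPM in TdTomato- and at 0.0907, 0.304, 0.706, 0.652 and 0.814 CPM in TdTomato+ libraries, 43.1-fold lower. Mouse 2 was at the floor for *Metrn*. Other genes overlap 48.4% of the exonic sequence of *Metrn* and 55.9% of that of *Zfp36l1*, mostly on the opposite strand, so these values may hold reads of the neighbours too. *Lix1* encodes a protein of limb expression and forebrain. It was at 26.4, 46.7, 44.6, 30.7 and 38.6 CPM in TdTomato- and at 58.1, 51.2, 49.9, 59.1 and 62.1 CPM in TdTomato+ libraries of mice 2 to 6. It rose by a log2 fold change of 0.61 (SE 0.14, adjusted p = 0.00384) with no overlap of the populations, and the gap was small in mice 3 and 4 and wide in mouse 2.

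The residual level of a gene is its TdTomato+ level as a percent of the TdTomato- level of the same mouse. For the 31 members that fell past both thresholds the mean residual level over mice ranged from 1.97% in *Pdpn* to 25.3% in *Cd63*, with a median of 4.58%, and 16 of them were under 5%. The lowest residual levels belonged to genes of unlike roles, *Pdpn*, *Rgcc* (2.20%), *Acsbg1* (2.33%), *Metrn* (2.34%), *Sall3* (2.47%) and *Sall1* (2.48%). The highest were those of *Cd63*, *Ttyh1* (21.8%), *Ddah1* (19.4%), *Qk* (17.7%) and *Gja1* (17.4%). At or under the floor of 3 counts were 4 single TdTomato+ values, 1 each of *Acsbg1*, *Gpx8*, *Rgcc* and *Metrn*. No member was at the floor in all of them.

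The residual levels differed between mice. Their median over the 31 members was 2.61%, 5.86%, 4.38%, 4.94% and 4.71% in mice 2 to 6. Over all 1393 genes that fell it was 6.43%, 9.57%, 9.79%, 9.07% and 8.11%, so mouse 2 was lowest there as well. Mouse 2 had the lowest residual level for 22 of the 31 members (71.0%), and for 49.2% of the 1393 genes. Mouse 6 had the highest for 12 of the 31 (38.7%), and for 24.6% of the 1393. The spread between mice was largest for *Metrn*, from 0.435% in mouse 2 to 4.00% in mouse 6, and for *Aldh1l1*, from 0.958% in mouse 2 to 6.03% in mouse 3. The mouse 2 value of *Metrn* rests on 2 counts, under the floor, so the order of these genes is uncertain. The highest was over 3 times the lowest in 7 members and under 1.5 times in 6, *Vim*, *Psat1*, *Qk*, *Ddah1*, *Phgdh* and *Ttyh1*. Neither number was set against all genes. The widest ranges rest on few TdTomato+ counts, 2 to 18 in *Metrn* and 5 to 17 in *Aldh1l1*, against 1315 to 1749 in *Vim*. *Phgdh* was among the narrow ones with 83 to 118 counts. The part of counting error in these ranges was not tested. *Psat1* had the smallest ratio of highest to lowest, 1.17, at 10.2% ± 0.723 (SD, n = 5). *Cyr61* was 1 of the 3 members with the highest value in mouse 2, at 8.25%.

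**Figure D4:**
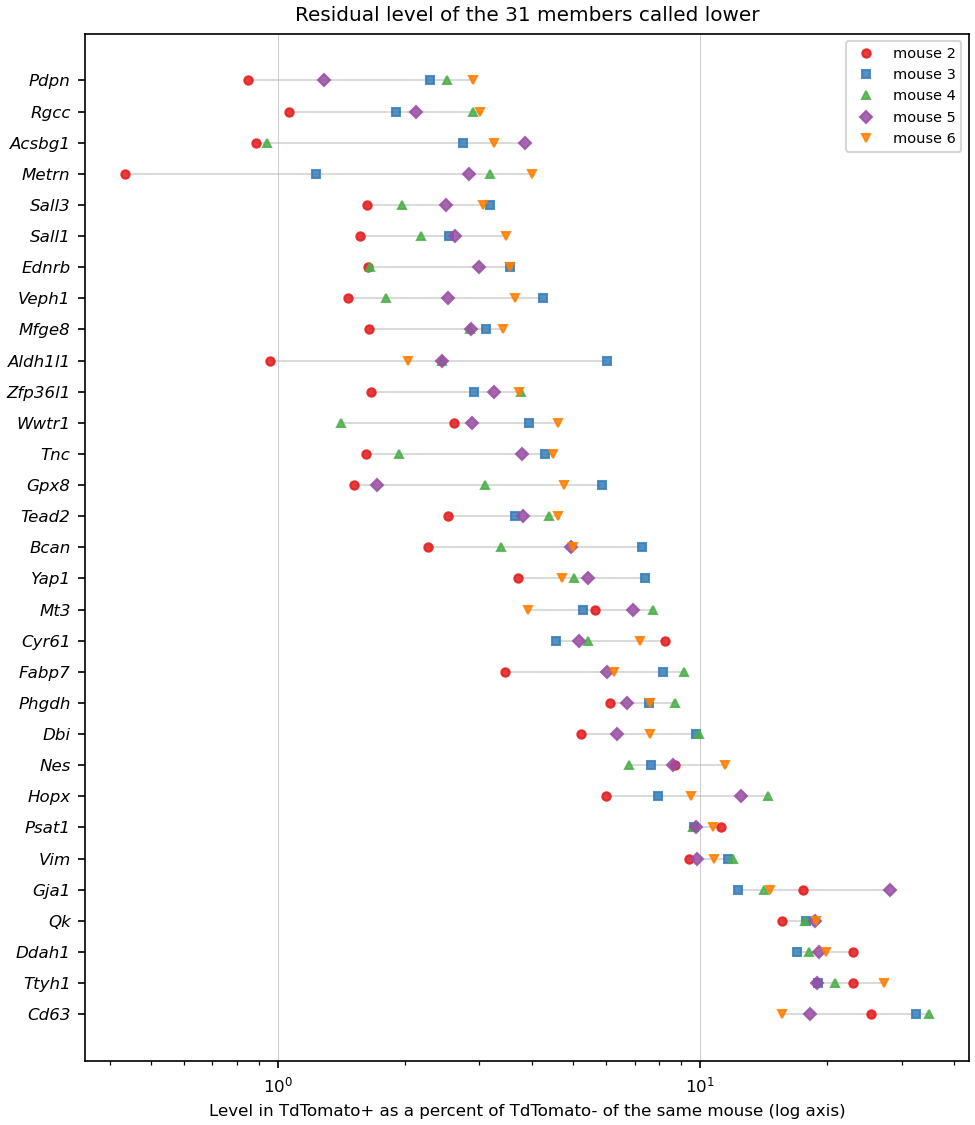
Residual level of the 31 members that fell past both thresholds, the TdTomato+ level as a percent of the TdTomato- level of the same mouse, on a log axis, with 1 symbol for each mouse and a line over their range. Mouse 2 lies lowest for 22 of the genes, and the range is widest for Metrn, whose mouse 2 value is under the floor of 3 counts, and narrowest for Psat1.

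The same comparison was made for cell types outside the members. Of the summed TdTomato- level of interneuron genes, 2.68% to 4.95% was left in TdTomato+ cells, of dividing-cell genes 4.61% to 6.74%, of intermediate progenitor genes 8.55% to 11.2%, and of pericyte genes 5.98% to 7.63%. The pericyte sum was mostly *Notch3* (87.3 CPM on average in TdTomato- cells), a Notch receptor that is not particular to pericytes, and the median residual level of the 5 pericyte genes was 5.88% to 15.7%, with *Rgs5* at a mean of 1.71 and 0.724 CPM and *Abcc9* at 1.05 and 0.610 CPM in TdTomato- and TdTomato+ cells. The summed erythroid level left was 11.8% in mouse 3 and 24.9% in mouse 4, against 1.08%, 1.71% and 2.00% in mice 2, 5 and 6. The summed microglial level left was 7.90% in mouse 3 and 5.06% in mouse 4, against 1.14% to 3.23% in the others, and 3 of 7 microglial genes were at the floor in every TdTomato+ library. For lists with few genes in the table, the share left was 47.1% to 109% of the endothelial sum (4 genes), 16.7% to 50.7% of the meningeal sum (2 genes), 7.87% to 58.6% of the oligodendrocyte precursor sum (4 genes) and 3.06% to 19.7% of the choroid plexus sum (2 genes). The endothelial shares lay above the mean residual level of each of the 31 members that fell. The part of such cells in the residual levels was not tested.

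Among the 5 mice, the TdTomato- levels of many members were lowest in mice 3 and 4, a pattern singled out after the values had been seen. *Tnc* was at 213, 53.6, 41.1, 173 and 186 CPM in the TdTomato- libraries of mice 2 to 6, and at 3.45, 2.30, 0.795, 6.57 and 8.32 CPM in TdTomato+ libraries. *Mfge8* was at 107, 46.0, 40.3, 105 and 105 CPM and at 1.77, 1.43, 1.15, 3.00 and 3.57 CPM. For *Tnc*, *Bcan*, *Mfge8* and *Aldh1l1* the SD of the log2 level over TdTomato- libraries was 1.12, 0.89, 0.71 and 0.79, and no other member passed 0.5, as 5.86% of all genes did. Mice 3 and 4 were the lowest TdTomato- libraries for 22 of the 37 members (59.5%) and for 16.2% of all genes, and the highest for 3 (*Nes*, *Gja1* and *Lix1*) and for 17.3% of all genes. In TdTomato+ libraries mice 3 and 4 were the lowest for 8 members (21.6%) and for 19.7% of all genes.

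**Figure D5:**
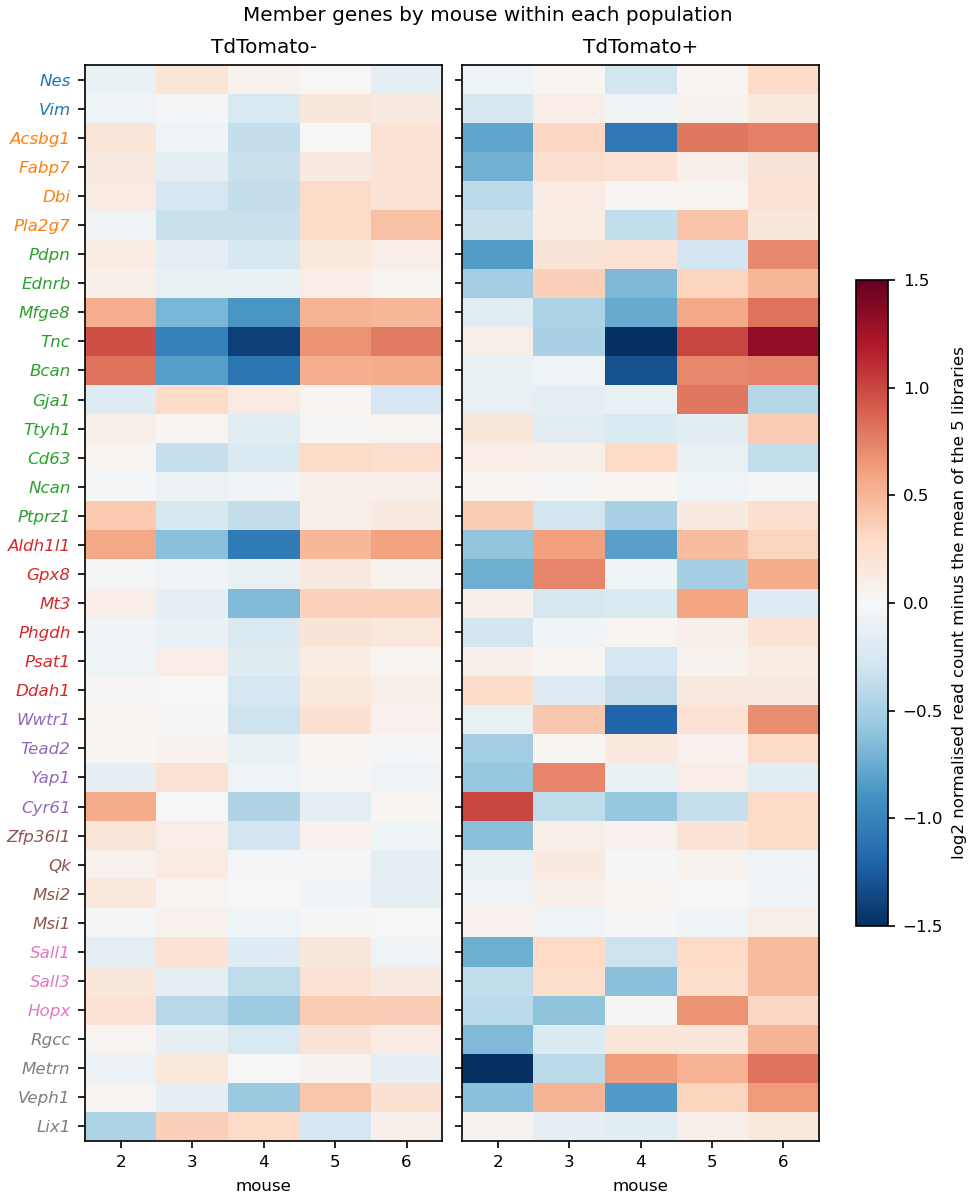
Log2 normalised read count of each member minus its mean over the 5 libraries of a population, for the mice numbered 2 to 6, in blue where lower and red where higher, with gene names colored by role. Tnc, Bcan, Mfge8 and Aldh1l1 are blue in the TdTomato- libraries of mice 3 and 4.

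Levels of other cell types differed between the same libraries. The summed microglial level in TdTomato- cells was 63.5, 13.7, 18.3, 46.8 and 53.2 CPM in mice 2 to 6, and the summed erythroid level was 109, 74.2, 103, 250 and 258 CPM, both lowest in mice 3 and 4. The summed level of oligodendrocyte precursor genes was 65.3, 46.6, 50.0, 56.1 and 60.9 CPM in TdTomato- cells, also lowest in mice 3 and 4. In TdTomato+ cells the sum was 6.21, 27.3, 26.0, 11.3 and 4.79 CPM, most of it *Lhfpl3* (4.13, 24.2, 24.1, 7.96 and 2.71 CPM), while *Olig1*, *Olig2* and *Pdgfra* fell by adjusted p. *Lhfpl3* was at 4.38, 5.81, 6.86, 3.84 and 3.66 CPM in TdTomato- cells, so that it was higher in TdTomato+ cells in mice 3, 4 and 5 and lower in mice 2 and 6, with a fitted log2 fold change of 1.02 (adjusted p = 0.0234). The summed interneuron level in TdTomato- cells was 2253, 1785, 1772, 2082 and 1796 CPM, where mouse 6 was as low as mice 3 and 4. Other lists did not share this order. The projection neuron sum in TdTomato- cells was 6163, 7085, 7254, 6620 and 6904 CPM, highest in mice 3 and 4. The 30 other radial glia genes summed to 4603, 4733, 4156, 4859 and 4697 CPM in TdTomato- cells, with mouse 4 lowest and mouse 3 second highest. The meningeal sum, 1.88, 2.90, 5.29, 2.50 and 1.92 CPM, was highest in mice 3 and 4, and the pericyte sum was highest in mouse 3, at 113 CPM. The part of these cell types in the levels of the members was not tested. Without any 1 of the mice, the fold change of *Tnc* stayed, on the log2 scale, between -5.16 and -4.71 and that of *Mfge8* between -5.31 and -5.02.

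In TdTomato+ cells the members varied more. The SD of the log2 level was over 0.5 for 14 of them (9.39% of all genes), and larger than in TdTomato- cells for 25 of 37 (67.6%). It was larger for 50.0% of all genes and for 82.2% of the 1393 that fell, so the share among the members lay between these. The median SD in TdTomato+ cells was 0.41 for the members, 0.14 for all genes and 0.48 for the 1393 that fell.

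Other genes known from radial glia were examined from a list of 30. Of these, 21 fell and 0 rose past both thresholds, 27 fell and 2 rose by adjusted p, and the median log2 fold change was -3.85. *Sox21*, an SRY-box factor, fell most (-5.59), followed by the Notch effector *Hes5* (-5.29). *Lhx2*, a LIM homeodomain regulator of cortical identity, fell by 2.67 on the log2 scale and kept 70.8 CPM on average. *Cdh2*, the N-cadherin of the adherens junction, averaged 489 CPM in TdTomato- libraries and 711 CPM in TdTomato+ libraries, an increase of 0.52 on the log2 scale (adjusted p = 0.000254). *Lifr*, the receptor of leukemia inhibitory factor, rose more, by 1.49 on the log2 scale (adjusted p = 1.85e-05), from a mean of 13.8 to 39.9 CPM. *Slc1a2*, a glutamate transporter, had a log2 fold change of 0.13 that did not pass the test (adjusted p = 0.331).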

How the data were processed

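RNA was sequenced from sorted cells of 10 samples. According to the study's methods, reads were trimmed by the authors and aligned with STAR 2.4.2a to GRCm38, unique alignments were kept, and the authors deposited the raw counts per gene. The methods and the labels disagree on the kit, sequencer and read length, and the annotation release and strand setting of the counts are not given in the sources used here. The deposited table holds 14300 genes, each with at least 0.501 CPM in 5 libraries, so weaker genes are not covered here.

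From these counts, edgeR 4.0.16 in R 4.3.3 was run on all genes (filterByExpr, TMM, glmQLFit, glmQLFTest, mouse number as a block), with Benjamini-Hochberg adjustment and the thresholds of 0.05 and a log2 fold change of 2 that the study used. The block follows the paired design of the study. Deviations of same-numbered libraries from their group means correlated at 0.303, 0.268, 0.281, 0.186 and 0.316, and at most 0.212 between different numbers. A prior count of 2 was used for log2 CPM and one of 0.125 for fitted fold changes. Simulated counts were tested first. The GENCODE annotation of GRCm38 matched 14271 genes and gave coordinates and exonic length. Symbols of *Cyr61* and *Ctgf* were matched through RefSeq synonyms.

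Members and gene lists were chosen with earlier results of these data known. All members are named, and genes of the other lists were named from the 2 of highest level and the 2 of largest change in each, plus paralogues or partners of members. *Lifr*, *Slc1a2*, *Rgs5*, *Abcc9*, *Cspg4* and *Pdgfra* were named after their values were seen. Alternatives were RLE scaling, total counts only, DESeq2 1.42.0, no count filter, more than 1 CPM in 5 libraries, no replicate block, TREAT, and each mouse left out in turn. P-values set the difference between the populations against its spread over these 5 mouse pairs, with differences between mice taken up by the block. The floor of 3 counts is a chosen value.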

Additional observations from a re-analysis of the deposited data

Results flagged for a closer look

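Single libraries stood apart from the other 4 of their group for 6 of 74 gene and population groups examined, where chance gives about 3.7 (1 in 20). The measure is the gap of the extreme library to its neighbour as a share of the range of the group on the log2 scale, with a limit of 0.71. In TdTomato+ libraries mouse 2 was lowest for *Fabp7* (0.823), for *Dbi* (0.711) and for *Zfp36l1* (0.764). Mouse 5 was highest for *Gja1* (0.732) and mouse 4 lowest for *Psat1* (0.758) in TdTomato+ libraries. Mouse 4 was lowest for *Ttyh1* in TdTomato- libraries (0.756).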

How the results depend on the processing

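The 37 fold changes under 11 alternative settings gave 407 values, of which 404 kept their direction and the call that needs both thresholds, 2 fell under the fold threshold (*Cd63*, -1.94 without mouse 5 and -1.88 without mouse 6), 1 passed it (*Pla2g7*, -2.04 with total counts only) and 0 changed direction. The number of members that fell past both thresholds was 31 in the reported analysis, 32 with total counts only, 30 with TREAT, and 30 to 31 without 1 mouse. Without the replicate block it was 31, with a median log2 fold change of -3.97, and the block changed no call. The median over the members ran from -4.19 to -3.96 over all settings. Scaling by total counts only moved the median of all genes to -0.18, and *Ncan*, under the fold threshold throughout, then no longer passed the adjusted p (0.202). Depth limits the lowest TdTomato+ values, since 4 of them were at or under 3 counts.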
